A study of Sus scrofa with 12 samples.

Results

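Glycolysis breaks glucose down to pyruvate, and 8 genes were chosen here for its enzymes and for what happens to the pyruvate. HK2, ALDOA, TPI1, GAPDH, PGK1 and ENO1 encode glycolytic enzymes, LDHA encodes the lactate dehydrogenase subunit that favours the conversion of pyruvate to lactate, and PDK4 encodes a kinase that inhibits the pyruvate dehydrogenase complex. Each gene was found by its symbol in the platform annotation, among probe sets that carry only that symbol, and was read by its brightest probe set on average over the 12 arrays. Of the 8 genes, 6 were measured, among 6765 genes with a symbol of their own. HK2 and ALDOA had no probe set under that symbol and are not analysed here.

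Dedifferentiation of 2 kinds of pig cell was compared on the Affymetrix porcine genome array, which reads each transcript through a probe set made of several short probes. Mature adipocytes (MA) came from fat tissue, and dedifferentiated fat cells (DFAT) were made from such cells by ceiling culture, in which buoyant cells attach to the top of a filled flask. Granulosa cells (GC), the somatic cells around the oocyte, came from ovarian follicles, and their dedifferentiated counterparts (DFOG) arose during culture in vitro. DFAT and DFOG were both grown to semiconfluence, whereas MA and GC were described as derived from tissue, so loss of the specialised state and growth in culture cannot be told apart. Each group had 3 arrays, called biological replicates in the labels, which name no treatment, genotype, breed, sex, age or animal and do not say whether animals were pooled. The p-values therefore reflect only how far these samples spread, which may be technical.

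Cells can send pyruvate along several routes. Lactate dehydrogenase turns it into lactate in the cytosol, the mitochondrial pyruvate carrier and pyruvate dehydrogenase bring it into the citric acid cycle as acetyl-CoA, and pyruvate carboxylase turns it into oxaloacetate. PDK4 phosphorylates pyruvate dehydrogenase and so lowers its activity; its RNA is known to rise in fasting and when fatty acids are burnt, and PPAR and FOXO transcription factors are known to drive it. In fat cells, glycolysis also supplies glycerol 3-phosphate for triglycerides, and granulosa cells are known to convert glucose to pyruvate and lactate that the oocyte can use.

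Levels are deposited log2 values, on which a difference of 1 is a 2-fold change, and each change is relative to all other RNA of the sample. The arrays of DFOG replicates 2 and 3 were nearly identical: their differences had an SD of 0.074, against 0.310 to 0.621 for other pairs of a group. DFAT 1 differed most from its own group (0.571 and 0.621). The 2 DFOG arrays were averaged to 1 sample, which leaves 11 samples and n = 2 for DFOG. Of the cell type markers, 8 adipocyte genes were measured, with a summed level of 16.0 to 16.1 in MA and 10.2 to 11.4 in DFAT. The 10 granulosa genes summed to 15.7 to 16.2 in GC and 10.3 to 10.4 in DFOG, so both starting populations carried the markers of their label. In these bulk samples fewer cells of a type and less RNA per cell cannot be told apart.

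Most of the measured enzymes were higher, and PDK4 was lower, after each dedifferentiation. From MA to DFAT, TPI1, PGK1, ENO1, GAPDH and LDHA rose and PDK4 fell. All 6 genes passed the test, beside 32.1% of all 23999 probe sets: 5 of 6 were higher, beside 15.7%, and 1 of 6 lower, beside 16.4%. In granulosa cells 5 of 6 passed, beside 24.9%. TPI1, PGK1, GAPDH and LDHA rose, 4 of 6 beside 12.3% of all probe sets, and PDK4 fell, beside 12.6%, while ENO1 did not pass. Centred on the poly-A controls, RNAs added to each sample, GAPDH was at -0.26 there and did not pass (adjusted p = 0.546 in limma). A gene rose or fell if its adjusted p was under 0.05 in limma's moderated test, with Benjamini-Hochberg adjustment over all probe sets. The median change of the 6 genes was 1.33 from MA to DFAT and 0.88 from GC to DFOG, against -0.07 and -0.02 over all probe sets.

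The rises ran from 1.39-fold for GAPDH to 9.44-fold for LDHA, both in fat cells. The change differed between the 2 cell types for 3 of 6 genes (ENO1, LDHA and PDK4), beside 23.3% of all probe sets, with 2 of 6 more positive in fat cells beside 11.6% and 1 more negative beside 11.7%. The same direction in each dedifferentiation, past the test both times, was seen for 5.91% of all probe sets upward and 4.04% downward. It was seen for 4 of the 6 genes upward (TPI1, PGK1, GAPDH and LDHA) and 1 downward (PDK4).

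**Figure D1:**
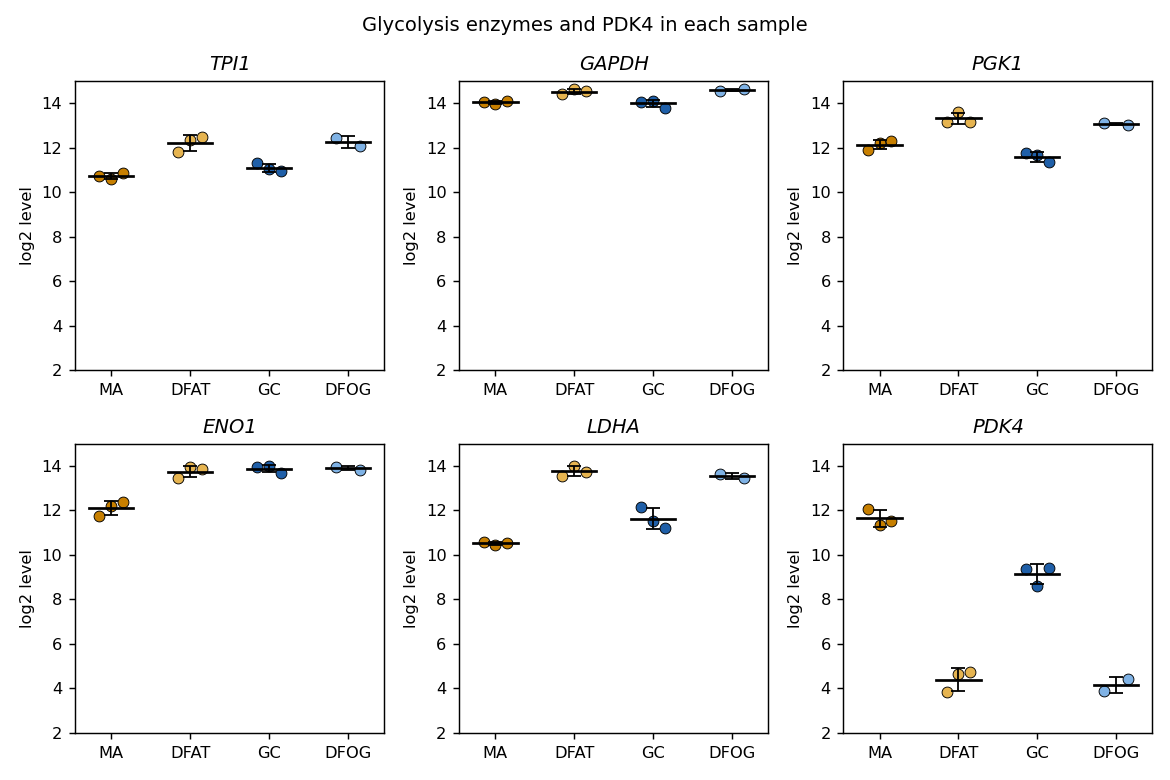
Log2 level of each gene (vertical axes) in every sample of the 4 groups (horizontal axes), with DFOG replicates 2 and 3 drawn as their mean; lines are group means and bars 1 SD. LDHA goes from between 10.45 and 10.60 in MA to between 13.54 and 14.01 in DFAT, while PDK4 goes from 11.36 or more to 4.73 or less.

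TPI1 encodes triosephosphate isomerase, which interconverts the triose phosphates made by aldolase. Its log2 level was 10.74, 10.60 and 10.88 in the MA replicates and 11.82, 12.37 and 12.46 in the DFAT replicates. In GC it was 11.30, 11.06 and 10.93, and in DFOG 12.46, 12.07 and 12.06. Every cultured sample lay above every sample of its source cells. Such a gap was found for 20.2% of all probe sets upward and 23.8% downward in fat cells, and for 23.9% and 25.1% in granulosa cells. TPI1 rose by 1.48 (SE 0.20, adjusted p = 0.000171 in limma) in fat cells and by 1.16 (SE 0.22, adjusted p = 0.00278) in granulosa cells, or 2.78-fold and 2.24-fold. The 2 changes differed by 0.31, with a 95% confidence interval from -0.35 to 0.97.

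PGK1 encodes phosphoglycerate kinase, an ATP-forming step. Its level was 11.90, 12.20 and 12.31 in MA against 13.17, 13.61 and 13.17 in DFAT. In GC it was 11.77, 11.67 and 11.35 against 13.09, 13.03 and 13.01 in DFOG. Neither pair of groups overlapped. PGK1 rose by 1.18 (SE 0.18, adjusted p = 0.000465) and by 1.46 (SE 0.21, adjusted p = 0.000328) in limma, or 2.27-fold and 2.75-fold.

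GAPDH encodes glyceraldehyde 3-phosphate dehydrogenase, the step that makes NADH, and is often used as a reference gene. Its level was 14.04, 13.99 and 14.12 in MA and 14.41, 14.63 and 14.54 in DFAT, and it was 14.08, 14.11 and 13.79 in GC and 14.56, 14.62 and 14.62 in DFOG. The groups did not overlap, but the steps were the smallest among the 5 enzymes in fat cells: 0.48 (SE 0.14, adjusted p = 0.0251 in limma) from MA to DFAT, and 0.60 (SE 0.16, adjusted p = 0.0177) from GC to DFOG. This probe set lies close to the top of the scale, since the highest level on any array was between 14.68 and 14.92. The call was lost on leaving out 1 of several samples: MA 1, MA 2, DFAT 2 or DFAT 3 in fat cells (adjusted p from 0.0571 to 0.0829), and GC 3 or DFOG 1 in granulosa cells (0.0653 and 0.0832).

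GAPDH is read by 14 probe sets in all, 5 for the gene and 9 placed on the array as controls, which were not tested. From MA to DFAT their changes ran from 0.31 to 2.88 with a median of 0.77, and in 13 of 14 every DFAT sample was above every MA sample. In granulosa cells they ran from 0.13 to 1.56 with a median of 0.79, and again 13 of 14 had every DFOG sample higher. The probe sets share a target, so they are not independent readings. Those with mean levels of 4.47 and 5.36 lay under the median of all values, 6.44, and cannot be told from background. The dimmer gave the lowest changes, 0.31 and 0.13. The widest change was in a gene probe set with a mean level of 11.79, which read 9.17, 10.32 and 9.69 in MA and 12.15, 13.01 and 12.65 in DFAT. That probe set was also lower in MA than in GC by 1.97 (adjusted p = 0.00104 in limma), whereas the representing one differed there by 0.06, so the probe sets did not give the same size of difference between the groups.

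**Figure D2:**
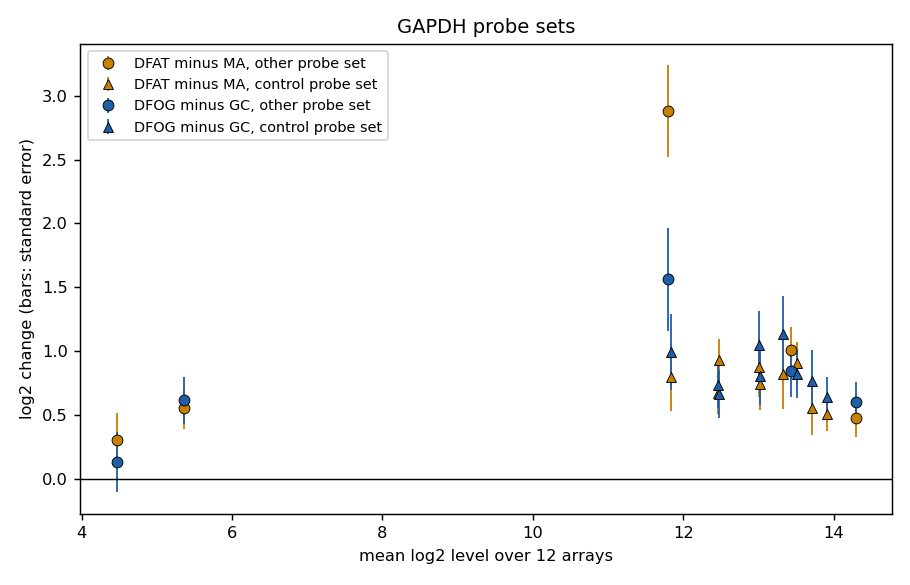
Log2 change of each of the 14 GAPDH probe sets (vertical axis, bars 1 standard error) against its mean log2 level over 12 arrays (horizontal axis), for both dedifferentiations; triangles are the array's control probe sets. All points lie above 0 as deposited, and 1 probe set stands out at 2.88 and 1.56. Under poly-A centring the representing probe set is at -0.26 in DFOG minus GC (adjusted p = 0.546 in limma).

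ENO1 encodes enolase 1, which makes phosphoenolpyruvate. Its level was 11.74, 12.20 and 12.38 in MA and 13.45, 13.93 and 13.86 in DFAT. In GC it was already 13.96, 13.99 and 13.69, and in DFOG it was 13.96, 13.82 and 13.83. The MA samples are thus the low ones, and the other groups lie together near 13.8. ENO1 rose by 1.64 from MA to DFAT (SE 0.20, adjusted p = 8.26e-05 in limma, 3.11-fold). From GC to DFOG the difference was 0.01, with an interval from -0.48 to 0.51 (adjusted p = 0.980). The 2 changes differed by 1.62 (SE 0.30, adjusted p = 0.00255).

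LDHA had the widest rise of the 5 enzymes in each cell type. Its level was 10.60, 10.45 and 10.53 in MA and 13.54, 14.01 and 13.74 in DFAT. In GC it was 12.15, 11.54 and 11.20, and in DFOG 13.66, 13.45 and 13.44. All cultured samples were above all samples from tissue. LDHA rose by 3.24 from MA to DFAT (SE 0.23, adjusted p = 1.22e-06 in limma), or 9.44-fold, and 1.62% of all probe sets had a larger rise. In granulosa cells it rose by 1.92 (SE 0.25, adjusted p = 0.000211), or 3.79-fold, and 3.84% had a larger rise. The rise in fat cells was larger by 1.32 (SE 0.34, adjusted p = 0.0159).

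PDK4 went the other way and by more. Its level was 12.06, 11.36 and 11.52 in MA and 3.82, 4.64 and 4.73 in DFAT. In GC it was 9.37, 8.61 and 9.40, and in DFOG 3.91, 4.42 and 4.38. The cultured samples all lay well under the median of all values, 6.44, and since the files hold no detection calls a level this low cannot be told from background. PDK4 fell by 7.25 from MA to DFAT (SE 0.31, adjusted p = 3.01e-08 in limma). In granulosa cells it fell by 4.97 (SE 0.34, adjusted p = 1.64e-06). These are differences of the deposited values, and since they end at a level that may be background, they bound the size of each fall from below.

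The 2 changes differed by -2.28 (SE 0.46, adjusted p = 0.00416 in limma), and by -0.73 (adjusted p = 0.226) when each array was centred on its poly-A controls. Both cultured groups ended at a like low level, with means of 4.40 in DFAT and 4.16 in DFOG, so this difference follows the starting levels and does not show which fall was larger. A second PDK4 probe set changed in the same direction in both cell types. It averaged 9.60 in MA, 3.15 in DFAT, 6.51 in GC and 3.32 in DFOG, and its changes were -6.44 and -3.18.

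**Figure D3:**
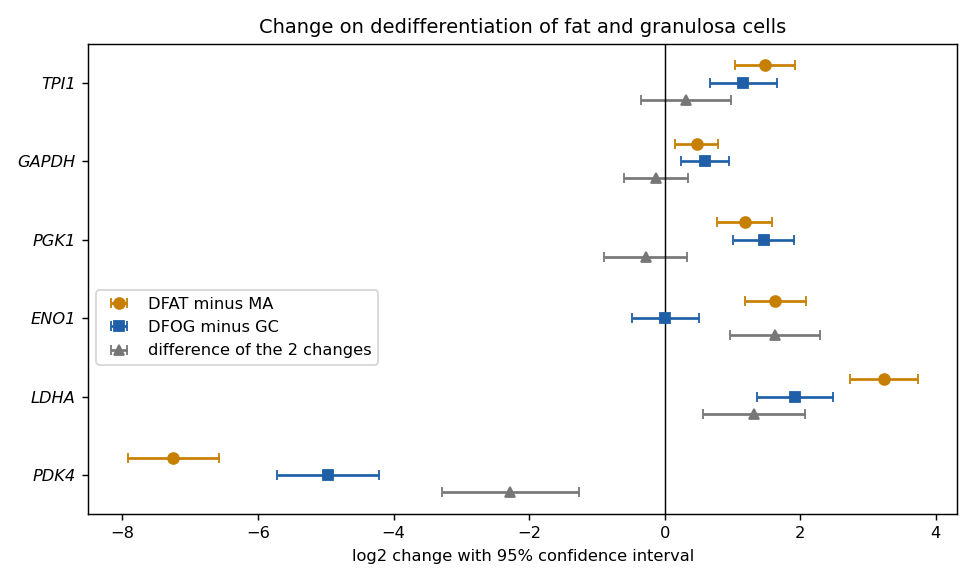
Log2 change of each gene (horizontal axis, bars 95% confidence intervals from limma) in DFAT minus MA, in DFOG minus GC, and the difference of the 2 changes. The intervals for the difference exclude 0 for ENO1 (1.62), LDHA (1.32) and PDK4 (-2.28, or -0.73 with an adjusted p of 0.226 under poly-A centring). Under poly-A centring the GAPDH change in DFOG minus GC is -0.26 (adjusted p = 0.546 in limma).

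More of the 6 genes passed between the starting cells than between the dedifferentiated ones, as did more of all probe sets. Between MA and GC, 4 of 6 genes passed the test, beside 40.5% of all probe sets. In limma, PDK4 was higher in MA by 2.52 (adjusted p = 5.43e-05) and PGK1 by 0.54 (adjusted p = 0.0364). ENO1 was lower in MA by 1.77 and LDHA by 1.10 (changes of -1.77 and -1.10, adjusted p = 3.16e-05 and 0.00227). The PGK1 call was lost without GC 2, GC 3, MA 2 or MA 3 (adjusted p from 0.0654 to 0.138), and the difference was -0.94 with poly-A centring. It was also lost when the deposited values were quantile normalized again, to 1 common distribution (0.32, adjusted p = 0.143 in limma). TPI1 did not pass as deposited (-0.36) but did with that normalization (-0.56, adjusted p = 0.0323) and with poly-A centring (-1.83, adjusted p = 4.04e-05).

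Between DFAT and DFOG, 0 of 6 passed in limma, beside 8% of all probe sets. None of the 6 could be told apart there, and the intervals bound the size: -0.54 to 0.45 for TPI1, -0.42 to 0.29 for GAPDH and -0.19 to 0.71 for PGK1. They were -0.64 to 0.35 for ENO1, -0.35 to 0.77 for LDHA and -0.51 to 0.996 for PDK4. These comparisons share their samples with the dedifferentiation comparisons and are not separate evidence.

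Several array measures moved with the groups. The actin control probe sets, read at the 3′ and 5′ ends of the transcript as a sign of RNA integrity, differed by 1.88 in MA, 0.61 in DFAT, 1.35 in GC and 0.39 in DFOG. With that difference as a covariate, GAPDH no longer passed in either dedifferentiation (adjusted p = 0.263 and 0.116 in limma), and PGK1 did not in fat cells (0.76, adjusted p = 0.0620). LDHA, PDK4 and TPI1 in both cell types, and ENO1 in fat cells, still passed. The mean of the poly-A controls was 8.38 in MA, 7.69 in DFAT, 6.90 in GC and 7.76 in DFOG.

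Centring on the poly-A controls moved the median of all probe sets to 0.62 from MA to DFAT and to -0.87 from GC to DFOG. Of the calls, 85.5% were then upward in the first and 8.39% in the second, against 48.9% and 49.5%. With that centring GAPDH (-0.26, adjusted p = 0.546 in limma), TPI1 (0.31) and PGK1 (0.60) no longer passed from GC to DFOG. LDHA (1.06) and PDK4 still did. Relative to the median each gene's change is the same as before.

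Markers of other cells also moved. The 6 measured stromal markers summed to 10.8 to 11.9 in MA, 14.2 to 14.5 in DFAT, 8.84 to 8.88 in GC and 12.8 to 13.0 in DFOG. The 8 macrophage markers summed to 9.1 to 10.1 in MA, 7.8 to 8.5 in DFAT, 7.4 to 7.6 in GC and 7.8 to 8.0 in DFOG, and 6 of them fell from MA to DFAT. Their part in the changes of the glycolytic genes and PDK4 was not tested.

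The rest of the pathway was read from 94 measured genes of 11 lists. From MA to DFAT, 20 rose and 41 fell (median change -0.37), and from GC to DFOG 14 rose and 16 fell (median 0.13). With the replicate number as a block in a fit of GC and DFOG arrays alone, 54 passed in place of 30. That fit took every array as its own sample, so the near-identical DFOG arrays were not averaged but counted separately. The gain therefore cannot be read as an effect of the block alone, here or for single genes below. The counts in the lists that follow stand beside 15.7% of all probe sets upward and 16.4% downward in fat cells, and 12.3% and 12.6% in granulosa cells, so that a count such as 1 of 6 or 2 of 14 is near those shares. Under poly-A centring 28 of the 94 rose and 21 fell in fat cells (median 0.32), and 7 rose and 37 fell in granulosa cells (median -0.72), so the balance of higher and lower genes depends on the scaling.

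Glucose transporters bring the sugar in. Of 6 measured, 3 rose and 1 fell from MA to DFAT, and 1 rose and 1 fell from GC to DFOG. SLC2A1, the basal transporter GLUT1, was 8.98, 8.76 and 9.03 in MA and 10.91, 12.01 and 11.09 in DFAT. In granulosa cells it was 7.51, 7.02 and 6.91 before and 10.61 and 9.99 after, with no overlap in either. It rose by 2.41 (SE 0.29, adjusted p = 6.77e-05 in limma) and 3.15 (SE 0.32, adjusted p = 3.22e-05). SLC2A12 fell by 2.07 in fat cells (adjusted p = 7.75e-06), and SLC2A8 rose by 0.61 there and fell by 1.01 in granulosa cells. The SLC2A8 rise was lost without MA 2 or DFAT 1 (adjusted p = 0.0907 and 0.0572). SLC2A3 passed in fat cells with 1.79 (adjusted p = 0.0464), but DFAT 1 stood at 6.97 beside 10.08 and 9.59, and the call was lost in 9 of the 12 fits that leave out 1 array.

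In the other enzymes of upper glycolysis, 4 of 8 rose and 1 fell in fat cells, and 3 rose in granulosa cells. HK1, which encodes a hexokinase, rose by 2.35 in granulosa cells (SE 0.33, adjusted p = 0.000351 in limma), from 10.96, 10.00 and 9.93 to 12.87 and 12.43. In fat cells it rose by 1.03 (adjusted p = 0.0214), a call lost without MA 1, MA 2, MA 3, DFAT 2 or DFAT 3. The phosphofructokinase subunit genes PFKM (1.06), PFKL (1.20) and PFKP (1.26) rose in fat cells. PFKL and PFKP each lost the call without MA 1, DFAT 2 or DFAT 3. With the actin covariate HK1 (0.36), PFKM (0.43), PFKL (0.47) and PFKP (0.06) all lost it in fat cells. PFKP also rose in granulosa cells, by 1.73, but not without DFOG 1, with poly-A centring or with the actin covariate (adjusted p = 0.138, 0.0948 and 0.219). GPI, the isomerase between hexokinase and phosphofructokinase, changed by 0.70 and 0.75 and did not pass (adjusted p = 0.0632 and 0.0874). It did pass in fat cells under 7 of the alternatives, among them poly-A centring (1.39, adjusted p = 0.00404) and leaving out DFAT 1 (adjusted p = 0.00409), and in granulosa cells with the block (0.70, adjusted p = 0.00365), with array weights (adjusted p = 0.0156) and without DFAT 1 (adjusted p = 0.0222).

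ALDOC, the aldolase isoform that was measured, moved against its neighbours in fat cells. It was 13.10, 13.03 and 13.19 in MA and 8.52, 10.27 and 9.81 in DFAT, and it fell by 3.58 (SE 0.37, adjusted p = 2.42e-05 in limma). In granulosa cells it rose by 1.33 (adjusted p = 0.0376), a call lost in 7 of the 12 fits without 1 array. The change was 0.98 without DFOG 1, which left 1 DFOG sample. This call was also lost in limma under poly-A centring (0.48, adjusted p = 0.373) and with the actin covariate (1.12, adjusted p = 0.224). The 2 changes differed by -4.91 (adjusted p = 9.81e-05). HK3 was read by 3 probe sets that disagreed, with changes of 1.86, -0.31 and 0.25 from GC to DFOG.

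In lower glycolysis, 2 of 6 rose and 1 fell in fat cells, and 1 rose and 1 fell in granulosa cells, where 3 rose and 1 fell with the block. ENO3, the enolase isoform typical of muscle, was 5.73, 5.79 and 6.13 in MA and 10.73, 10.71 and 9.45 in DFAT. In GC it was 7.75, 7.41 and 7.66, and in DFOG 11.48 and 10.34. It rose by 4.41 (SE 0.36, adjusted p = 3.75e-06 in limma) and 3.30 (SE 0.40, adjusted p = 0.000120), so this enolase gene rose in both cell types although ENO1 passed only in fat cells. The 6 measured skeletal muscle markers summed to 7.29 to 7.37 in MA and 6.84 to 7.13 in DFAT, and 0 of 6 rose in limma in either comparison. ENO2 rose by 1.33 in fat cells (adjusted p = 0.0402), a call lost without MA 2, MA 3, DFAT 2, DFAT 3 or GC 3.

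PKM encodes pyruvate kinase, the last step to pyruvate, and it did not follow the earlier steps. It fell by 1.24 (SE 0.14, adjusted p = 4.72e-05 in limma) and 0.72 (SE 0.16, adjusted p = 0.00635), from 9.13, 9.10 and 9.17 in MA to 7.82, 7.83 and 8.03 in DFAT. A second, dimmer PKM probe set changed by -0.78 and -0.05, and the granulosa call was lost without DFOG 1 (adjusted p = 0.0582) and with the actin covariate (0.0781). By the mean of the gene's probe sets, the granulosa change was -0.38 and did not pass in limma (adjusted p = 0.154). Under poly-A centring the fall in fat cells did not pass either (-0.55, adjusted p = 0.180). The probe sets do not tell the M1 and M2 splice forms apart here.

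At the lactate branch, LDHA has a partner subunit gene, LDHB. LDHB, whose subunit favours the reverse reaction, was 14.13, 14.13 and 14.09 in MA and 12.82, 12.08 and 12.20 in DFAT, and it fell by 1.75 (SE 0.20, adjusted p = 4.28e-05 in limma). In granulosa cells it was 12.44, 12.08 and 12.15 before and 12.26 and 12.17 after, a change of -0.01 (adjusted p = 0.984). The 2 changes differed by -1.74 (adjusted p = 0.00145). Under poly-A centring LDHB passed in granulosa cells (-0.87, adjusted p = 0.0448), and the 2 changes differed by -0.19 (adjusted p = 0.710). LDHD, a mitochondrial D-lactate dehydrogenase, fell by 2.55 in fat cells, and LDHC, the testis isoform, stayed between 3.36 and 4.26 in all samples.

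SLC16A3 encodes MCT4, the exporter of lactate. It was 4.78, 4.59 and 5.07 in MA and 7.32, 10.15 and 9.33 in DFAT, and it rose by 4.12 (SE 0.62, adjusted p = 0.000366 in limma). DFAT 1 was the lowest of its group but still above all MA samples. In granulosa cells the change was 1.44 and did not pass (SE 0.69, adjusted p = 0.171); it passed with the block (1.21, adjusted p = 0.000623), with array weights (adjusted p = 0.0377) and without DFAT 1 (adjusted p = 0.0356).

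**Figure D4:**
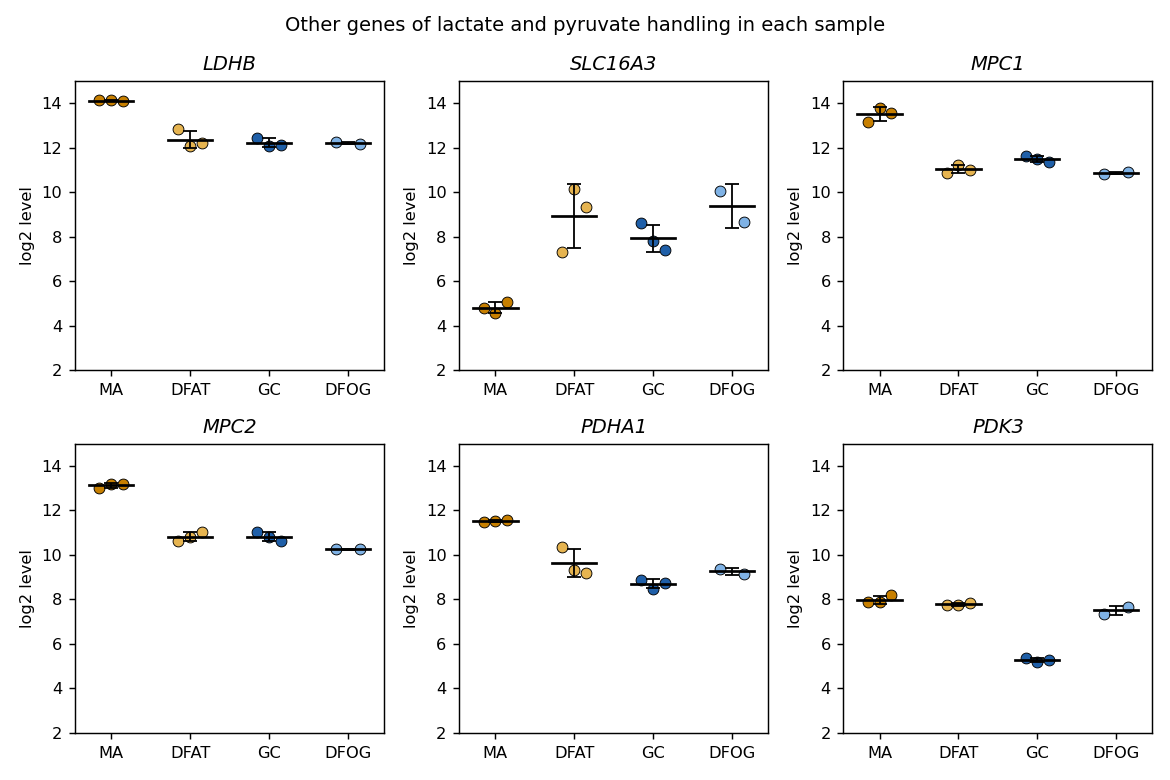
Log2 level (vertical axes) of 6 genes of lactate and pyruvate handling in every sample of the 4 groups (horizontal axes), with DFOG replicates 2 and 3 drawn as their mean; lines are group means and bars 1 SD. LDHB, MPC1, MPC2 and PDHA1 are high in MA, and PDK3 is low in GC, between 5.20 and 5.38.

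At the mitochondrial branch, 6 of 8 measured genes of the pyruvate dehydrogenase complex and its control fell from MA to DFAT and 0 rose in limma (median -1.25); under poly-A centring 4 fell. MPC1 and MPC2, the subunits of the mitochondrial pyruvate carrier, fell by 2.48 and 2.29 (adjusted p = 1.65e-06 and 1.14e-06). MPC1 went from between 13.17 and 13.80 in MA to between 10.87 and 11.22 in DFAT. PDHA1, the catalytic subunit that PDK4 phosphorylates, was 11.49, 11.51 and 11.56 in MA and 10.37, 9.32 and 9.21 in DFAT and fell by 1.89 (SE 0.27, adjusted p = 0.000237). PDP2, a phosphatase that reverses the kinases, fell by 1.61. DLD, a shared subunit of the complex, fell by 0.89, and with poly-A centring its change was -0.20 (adjusted p = 0.619). PDHB fell by 0.65, a call lost without MA 2, DFAT 2 or DFAT 3 (adjusted p from 0.0561 to 0.0649), and with poly-A centring it was at 0.0376.

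In granulosa cells 3 of the 8 fell and 1 rose, while 6 fell under poly-A centring and 4 fell and 2 rose with the block. The 3 were MPC1 (-0.62), MPC2 (-0.56) and DLD (-0.73). Each lost its call without DFOG 1, which left 1 DFOG sample (changes of -0.59, -0.54 and -0.56). The MPC1 call was also lost without GC 1, GC 2, GC 3, MA 3 or DFAT 3. That of MPC2 was lost without GC 1, GC 2, MA 2, MA 3 or DFAT 2. MPC2 did not pass with only the compared groups in the fit or with the actin covariate either (adjusted p = 0.0680 and 0.0731 in limma). The gene that rose was PDK3, another pyruvate dehydrogenase kinase. It was 5.38, 5.20 and 5.26 in GC and 7.36 and 7.66 in DFOG, and it rose by 2.23 (SE 0.17, adjusted p = 3.16e-06 in limma). In fat cells it was 7.87, 7.90 and 8.18 before and 7.75, 7.74 and 7.84 after (-0.21, adjusted p = 0.341). The 2 changes differed by -2.44 (adjusted p = 2.19e-05), or by -0.89 (adjusted p = 0.0994) under poly-A centring. PDK3 and PDK4 thus moved in opposite directions in granulosa cells. A second PDK3 probe set, at a mean level of 3.61, changed by 0.19 there (adjusted p = 0.559).

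**Figure D5:**
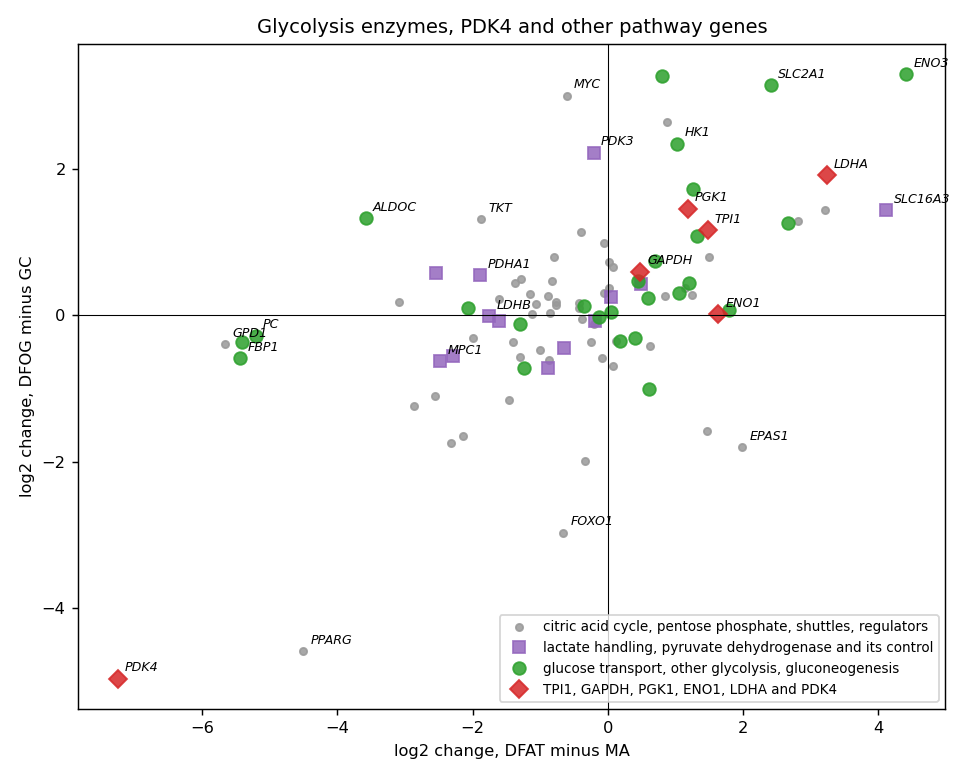
Log2 change in DFAT minus MA (horizontal axis) against DFOG minus GC (vertical axis) for the 6 genes and 94 other pathway genes, coloured by role. PDK4 lies at the lower left (-7.25 and -4.97), LDHA at the upper right (3.24 and 1.92), and FBP1, PC and GPD1 far to the left with changes near 0 in granulosa cells.

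Of 6 measured genes of the reverse pathway, its regulation and pyruvate carboxylation, 3 fell, 1 rose and 2 did not pass in fat cells. In granulosa cells 1 rose and 0 fell. PC, pyruvate carboxylase, was 13.04, 13.08 and 13.22 in MA and 7.05, 8.35 and 8.31 in DFAT and fell by 5.21 (SE 0.31, adjusted p = 3.36e-07 in limma). The fructose bisphosphatases FBP1 and FBP2 fell by 5.44 and 5.41. In granulosa cells their changes were -0.28 for PC, -0.59 for FBP1 and -0.36 for FBP2, and none passed. Under poly-A centring all 3 passed there (-1.14, -1.45 and -1.22, adjusted p = 0.0352, 0.00657 and 0.0241), and FBP1 also passed with the block (-0.54, adjusted p = 0.0134) and with array weights (adjusted p = 0.0302). PCK2, the mitochondrial phosphoenolpyruvate carboxykinase, rose by 2.67 and 1.26, the latter lost with poly-A centring and with the actin covariate (adjusted p = 0.349 and 0.0888). PCK1 did not pass in fat cells: it was 10.31, 9.75 and 9.92 in MA and 6.38, 10.08 and 9.61 in DFAT. These lists also hold genes of the fat cell's own programme, and the fall of the adipocyte markers, 8 of 8 with a median of -4.78, moved with them; its part was not tested.

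Around glycolysis, 7 of 15 citric acid cycle genes fell and 1 rose in fat cells, while 1 fell in granulosa cells. Under poly-A centring 0 fell and 2 rose in fat cells and 7 fell in granulosa cells, and with the block 4 rose and 3 fell there. The granulosa fall was that of SDHA, a subunit of succinate dehydrogenase (-0.48, adjusted p = 0.0431 in limma). Its call was lost in 7 of the 12 fits without 1 array, with only the compared groups in the fit and with the actin covariate (adjusted p = 0.0745 and 0.0684). A second SDHA probe set, at a mean level of 10.01, changed by -0.06 in granulosa cells (adjusted p = 0.948 in limma). By the mean of the gene's probe sets the change was -0.27 (adjusted p = 0.516). CS, citrate synthase, fell by 1.28 in fat cells, and under poly-A centring its change was -0.59 (adjusted p = 0.136). In the pentose phosphate pathway 3 of 5 fell and 1 rose in fat cells, and 1 fell and 2 rose in granulosa cells. TKT, transketolase, fell by 1.88 in fat cells and rose by 1.32 in granulosa cells (difference -3.20, adjusted p = 3.80e-05 in limma). Under poly-A centring the granulosa rise was lost (0.46, adjusted p = 0.293), and the difference was -1.65 (adjusted p = 0.00892). In the shuttles around glycerol 3-phosphate, 4 of 7 fell in fat cells, GPD1 by 5.66, and 2 rose and 2 fell in granulosa cells, GPD2 by 2.65 upward.

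Among 14 measured genes of the hypoxia response, 6 rose and 3 fell in fat cells, and 2 rose and 4 fell in granulosa cells. In granulosa cells 7 fell under poly-A centring, and 5 rose and 7 fell with the block. EPAS1, which encodes HIF-2 alpha, rose by 1.99 in fat cells and fell by 1.81 in granulosa cells (difference 3.79, adjusted p = 0.00120 in limma), the former lost with the actin covariate (adjusted p = 0.164). HIF1A rose by 0.62 in fat cells and changed by -0.42 in granulosa cells (adjusted p = 0.106), where it passed with the block (adjusted p = 0.0416) and under poly-A centring (-1.28, adjusted p = 0.00884). Its other probe sets changed by 0.12, 0.09 and 0.36 in fat cells, and none passed in limma. In granulosa cells they changed by -0.04, -0.56 and -1.01, and only the last passed (adjusted p = 0.0306). P4HA2, a collagen prolyl hydroxylase, rose in each, by 3.22 and 1.44, the latter lost under poly-A centring (adjusted p = 0.176). MYC, a transcription factor known to act on LDHA, was 6.76, 6.45 and 6.77 in GC and 9.80 and 9.53 in DFOG and rose by 3.01 there. In fat cells it fell by 0.61, a call lost without MA 1 or DFAT 1 and with poly-A centring (0.0826, adjusted p = 0.838 in limma).

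Among 14 regulators of PDK4 and PPAR target genes, 10 fell and 1 rose in fat cells, and 3 fell and 1 rose in granulosa cells; under poly-A centring 4 fell in fat cells and 5 in granulosa cells. PPARG, which is also an adipocyte marker, fell by 4.51 and 4.60. FOXO1 was 13.29, 13.30 and 13.31 in GC and 10.08 and 10.57 in DFOG and fell by 2.97 there. In fat cells it fell by 0.66, a call lost without MA 1 or DFAT 1 and with poly-A centring (0.0289, adjusted p = 0.946 in limma). CPT1A, the gate for fatty acids into mitochondria, rose by 2.81 in fat cells and 1.30 in granulosa cells, the latter lost without GC 1, GC 2 or DFOG 1 and under poly-A centring. ANGPTL4 fell by 2.55 and 1.10, the latter lost without GC 2 or DFOG 1 and with the actin covariate.

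Over the 11 samples, the genes whose level followed LDHA most closely among 6547 were GART, RRBP1, CNN2, TEAD4 and RCN1, with Pearson's r from 0.984 to 0.990. For PDK4 they were MACROD1, PKM, COX7A1, RBM48 and NPC1, with r from 0.980 to 0.989. The samples fall into groups, so such values describe the order of the group levels.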

How the data were processed

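RNA was measured in 12 arrays of 4 groups, from 5 µg of total RNA per array. The deposited values are log2 expression values, made by the authors with RMA, a robust averaging over probes, as the submitters' processing notes name it; its settings and the build are not given in the sources used here. RMA gives the probe intensities of all arrays a common distribution before averaging, which the averaged values need not share exactly. Sample medians of the tested probe sets ran from 6.36 in MA to 6.49 in DFAT. The number of arrays limits the precision. Of 24123 probe sets, 124 controls were left out and 23999 tested, with no filter on low values. Gene names came from the platform annotation, which can be old.

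Computation used R 4.3.3 with limma 3.58.1; figures used Python 3.11.15 and matplotlib 3.10.9. limma fitted 1 mean per group over 11 samples (7 residual degrees of freedom), with 5 contrasts, two-sided moderated tests and Benjamini-Hochberg adjustment, threshold 0.05. The scripts were tested on simulated data. Lists and genes were chosen with earlier results of these data known. The rule for naming took all 8 genes, isoform partners and single-step enzymes. It also took up to 4 genes per list whose change was largest among those passing in each dedifferentiation. Not all genes that the rule took are described here: DLAT, PGAM2, UCP3, EGLN1, MXI1 and ANKRD37 are among those left out. HIF1A and PCK1 were chosen after their values were seen.

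Same-numbered GC and DFOG arrays deviated together (r from 0.36 to 0.60), partly through the near-identical DFOG arrays; MA and DFAT pairs gave r of 0.0999, 0.168 and 0.126. The block is therefore given as an alternative, with every array as its own sample and the near-identical DFOG arrays counted separately. Others were array scaling, covariate, weights, prior, filter, probe set choice, samples in the fit and leaving out each array.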

Additional observations from a re-analysis of the deposited data

Results flagged for a closer look

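The change on dedifferentiation differed between fat and granulosa cells for 3 of the 6 genes, by limma's test of the difference itself. ENO1 rose by 1.62 more in fat cells (adjusted p = 0.00255), and LDHA rose by 1.32 more (adjusted p = 0.0159). For PDK4 the 2 changes differed by -2.28 (adjusted p = 0.00416), or by -0.73 (adjusted p = 0.226) under poly-A centring; both cultured groups ended at a like low level (4.40 and 4.16), so which fall was larger is not shown. Over the fits that leave out 1 array, the differences ran from 1.44 to 1.77 for ENO1, from 1.06 to 1.53 for LDHA and from -2.52 to -1.99 for PDK4. Such a difference was called in 23.3% of all probe sets. The starting levels differed too: MA stood below GC for ENO1 and LDHA and above it for PDK4, and DFAT and DFOG could not be told apart.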

How the results depend on the processing

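Beside the reported fit, 24 settings were run, 1 of them (the replicate block in GC and DFOG alone) chosen after seeing the data. LDHA and PDK4 in both dedifferentiations, and ENO1 and TPI1 in fat cells, kept direction and call in all settings run for each. There were 23 settings from MA to DFAT and 24 from GC to DFOG, since the block in GC and DFOG alone bears only on the latter. Of 690 values of the 6 genes, 663 kept the call, with direction compared only where a gene passed in at least 1 of the 2 fits. Without 1 array, the number of the 6 genes called ran from 5 to 6 from MA to DFAT, from 4 to 5 from GC to DFOG and from 3 to 4 between MA and GC. With poly-A centring it was 2 from GC to DFOG and 5 for the difference of the changes. Calls over all probe sets were then 12014 from GC to DFOG, 18077 for the difference and 20765 between MA and GC, in place of 5971, 5593 and 9713. With poly-A centring, PGK1 between MA and GC passed with the opposite sign (-0.94, in place of 0.54). Other values changed sign but passed in only 1 of the 2 fits. Lost with the centring were the calls of GAPDH from GC to DFOG (-0.26, adjusted p = 0.546 in limma) and, from MA to DFAT, MYC (0.0826), FOXO1 (0.0289) and PDHB (0.0376). Passing only with the centring were GAPDH (1.42 for the difference, -1.42 between MA and GC) and PGK1 (1.27 for the difference). With the mean of a gene's probe sets, HK3 (0.60 from GC to DFOG) and GAPDH (-0.40 between MA and GC) passed. In the reported fit they had the other sign (-0.31 and 0.06) and did not pass. The cause was not tested. Of the 663 values of the 6 genes that kept the call, 21 changed sign without passing either time, as did 45 values of other genes.

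The replicate block in GC and DFOG alone gave 54 pathway genes and 10548 probe sets, in place of 30 and 5971, and changed no call of the 6 genes. It counted the near-identical DFOG arrays separately, so the gain cannot be read as an effect of the block alone. Leaving out 1 array gave 18 to 41 and 3586 to 6563, lowest without DFOG 1. Between DFAT and DFOG, 16 pathway genes and 1921 probe sets were called: 8 and 1025 with only those groups in the fit, 8 pathway genes with poly-A centring, 2947 probe sets with the replicate block over all arrays, and 7 to 22 and 1103 to 2138 without 1 array, lowest without DFOG 1. Promoter motifs and protein identity were planned but not run, since no sequence table was used here. Dim probe sets limit the size of falls such as that of PDK4.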

Other observations

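In the RefSeq gene order of the pig, used only for which genes lie beside each other, the neighbours of the 6 genes were read as a description chosen after values were seen (3 protein-coding genes on each side). Of 19 measured, 3 rose and 4 fell from MA to DFAT, and 1 rose and 2 fell from GC to DFOG. These counts are near the shares of all probe sets, 15.7% and 16.4% in fat cells and 12.3% and 12.6% in granulosa cells. All 3 measured neighbours of PDK4 fell from MA to DFAT in limma. They were PON3, a paraoxonase (-8.62, mean level 11.98 in MA and 3.35 in DFAT), PON2 (-2.25) and DYNC1I1, a dynein chain (-4.19). The DFAT level of PON3 cannot be told from background, so its change is a lower bound of the size. From GC to DFOG, PON3 changed by -0.01 and PON2 by -0.14, and DYNC1I1 fell by 1.88 (adjusted p = 0.00120 in limma). PON3 was at a mean level of 3.30 in GC, where PDK4 was at 9.13.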
